A study of Arabidopsis thaliana with 6 samples.

Results

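QQS (AT3G30720) and 76 other genes of the pericentromere of Arabidopsis thaliana chromosome 3 are described here, in seedlings moved from darkness to light. The members are the genes whose identifiers run from AT3G28500 to AT3G33500 and whose mean over the 6 libraries was at least 10 normalized counts, without the expansin gene AT3G29030. They number 77 of the 672 genes listed in that range, and of 36917 genes in the whole table. The range was placed around QQS and AT3G29633 because both differed between the groups, so their difference is given as a description and without a test. All members were chosen by their mean level over the 6 libraries within that range. Of the 595 genes left out, 481 had no read in any library and 114 had reads but a mean under 10.

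The seedlings carried the genotype bbx14-1 (3 libraries) or were wild type, WT (3 libraries), and for both the labels name Col-0 as the background. All were stratified for 3 days, given 2 h of white light at 100 µmol photons per square metre and second, grown for 3 days in darkness and lit for 1 day, so that RNA represents day 4. The labels do not say where the lesion of bbx14-1 lies, nor whether the samples of a group were grown apart, so the p-values speak only of the spread among the libraries at hand, part of which can be technical. RNA was depleted of ribosomal RNA and sequenced with strand-marking libraries, and a value is a read count divided by the library's size factor, called a normalized count below.

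Recovered depth was 25505859 to 32621183 reads in the libraries labelled bbx14-1 and 20939505 to 32064650 in the WT libraries, of which nuclear genes took 10970954 to 14677324 reads in the libraries labelled bbx14-1 and 9816440 to 14006495 in WT. BBX14 mRNA, the check of the labels, was 767 ± 122 normalized counts in the libraries labelled bbx14-1 and 580 ± 90.0 in WT (SD, n = 3 each; limma, adjusted p = 0.0726), so it was not lower in the libraries that carry the mutant label. In 2 of the other processing settings used below it was called higher there. Green cotyledon markers were abundant in every library, and the 3 pollen markers were at 0 in all. All 6 tested seed reserve markers of 9 had a negative fold change, with 1, the cruciferin gene CRC, called lower. The summed level of the 9 was 76.3 to 87.0 normalized counts in the libraries labelled bbx14-1 and 732, 168 and 164 in WT, where replicate 1 stood apart. CRC kept its call without WT replicate 1, with a log2 fold change of -1.52 in place of -2.22 (limma, adjusted p = 0.0369), and lost it without the variance trend that limma fits over genes (adjusted p = 0.191). Of 5 root hair markers 0 were called, and their sum was 185 to 258 normalized counts in the libraries labelled bbx14-1 and 131 to 163 in WT. The part of these differences in the results below was not tested, and in whole seedlings fewer cells of a type and less RNA per cell cannot be told apart.

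The pericentromere is the transposon-rich chromatin next to a centromere, where most DNA is methylated and few genes are transcribed. QQS is a short gene that has no relatives outside Arabidopsis thaliana. It is known for lowering leaf starch and raising protein, its product binds the transcription factor subunit NF-YC4, and its expression is known to vary among natural lines with the methylation of its upstream region. In the range of identifiers used here, the annotation gives 435 of the 672 listed genes as pseudogenes, 232 as protein-coding, 4 as tRNA and 1 as a long non-coding RNA. Of the members, 72 were protein-coding, 4 were pseudogenes and 1 was the long non-coding RNA.

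The 250 bases before the annotated start are shown for QQS, for AT3G29633 and for the non-coding RNA gene AT3G29644, since these had the largest differences among the members that were called or chosen. They were read from the TAIR10.1 genome with the RefSeq annotation, and each is written 5′ to 3′ on the strand of its gene. The QQS stretch is chr3:12348797-12349046 on the plus strand. That of AT3G29633 is chr3:11453529-11453778 and that of AT3G29644 is chr3:11501425-11501674, both on the minus strand. Capitals mark matches, on either strand, to the CCAAT box (CCAAT) or the TATA box core (TATAAA).
QQS: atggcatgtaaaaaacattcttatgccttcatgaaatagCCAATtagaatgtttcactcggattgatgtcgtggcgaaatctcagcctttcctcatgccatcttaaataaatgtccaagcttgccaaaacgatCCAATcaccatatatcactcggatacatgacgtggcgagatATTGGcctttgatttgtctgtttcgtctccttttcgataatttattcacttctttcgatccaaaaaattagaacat
AT3G29633: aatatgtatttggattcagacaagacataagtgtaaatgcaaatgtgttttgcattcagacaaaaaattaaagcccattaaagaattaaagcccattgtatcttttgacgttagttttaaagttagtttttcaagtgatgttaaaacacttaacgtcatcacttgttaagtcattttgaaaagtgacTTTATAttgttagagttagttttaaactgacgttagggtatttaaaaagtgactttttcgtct
AT3G29644: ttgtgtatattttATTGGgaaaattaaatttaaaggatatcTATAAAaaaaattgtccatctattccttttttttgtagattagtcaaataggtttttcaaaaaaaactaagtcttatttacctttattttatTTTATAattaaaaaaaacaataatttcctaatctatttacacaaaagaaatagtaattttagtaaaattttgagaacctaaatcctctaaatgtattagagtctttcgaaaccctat
QQS held 3 CCAAT matches, AT3G29644 held 1 and AT3G29633 held 0. CCAAT was found in 47.7% of the same stretch of 18813 tested nuclear genes and in 39 of the 77 members. The TATA box core was found 0, 1 and 2 times in QQS, AT3G29633 and AT3G29644, and in 45.8% of all stretches. The G-box (CACGTG), the evening element (AAAATATCT) and the I-box core (GATAAG), found in 7.30%, 2.48% and 12.6% of all stretches, had no match in the 3 shown. The QQS stretch had 10 CG dinucleotides, against 4 for AT3G29633, 1 for AT3G29644 and a median of 5 over all stretches. Within it the run tcactcggat, of 10 bases, occurred at 197 and again at 103 bases before the start. This was not particular to QQS. The longest run found again in the same stretch had 14 bases in AT3G29633, at 185 and 167 bases before the start. In AT3G29644 it had 9 bases, at 243 and 125. The longest run that QQS and AT3G29633 shared was 10 bases, on either strand. How often such runs occur over all stretches was not counted.

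QQS was a gene with hardly a read in WT and a clear level in the libraries labelled bbx14-1. Its value was 389, 273 and 260.1 normalized counts in the libraries labelled bbx14-1, against 1.68, 0 and 4.03 in WT, or 1000 reads against 6 in all. The lowest value labelled bbx14-1 was 64.5 times the highest WT value, and the groups lay far apart. QQS lies at chr3:12349047-12349933 on the plus strand, in 3 exon blocks of 687 bases. It overlapped no other annotated gene, and 0% of its 50-base windows occurred more than once in the genome. Per kilobase of exon, its level was 447 normalized counts in the libraries labelled bbx14-1, rank 11 of the 77 members, and 2.77 in WT, rank 75.

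AT3G29633, annotated as an uncharacterized protein-coding gene, showed the same form of difference. Its value was 326, 387 and 390.2 normalized counts in the libraries labelled bbx14-1, against 6.73, 0 and 0 in WT. All 8 WT reads came from WT replicate 1, and the lowest value labelled bbx14-1 was 48.5 times that library's value. The gene lies at chr3:11452509-11453528 on the minus strand as 1 exon block of 1020 bases, with 0% of its windows found more than once. Per kilobase it ranked 16 in the libraries labelled bbx14-1, at 361 normalized counts, and 76 in WT, at 2.199. A stretch of 896 kb separates it from QQS, and 13 other members lie between them by identifier.

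**Figure D1:**
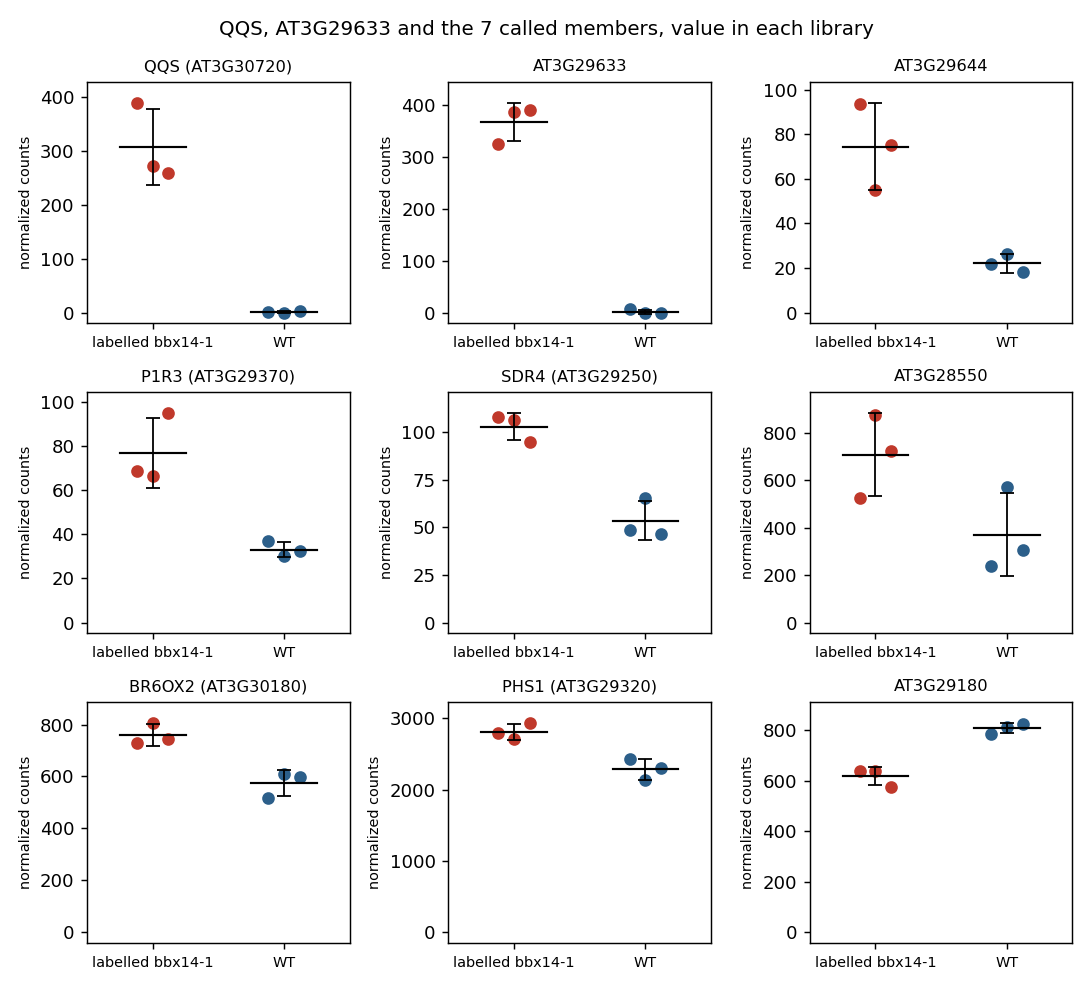
Normalized counts (vertical axis, from near 0) of QQS, AT3G29633 and the 7 called members in each library labelled bbx14-1 (left) and WT (right); points are libraries, lines are means and bars are SD (n = 3). QQS and AT3G29633 lie near 0 in WT and at 260.1 to 390.2 in the libraries labelled bbx14-1, while AT3G28550 is the one gene whose groups overlap.

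By their counts, the genes next to QQS did not share its level. Within 50 kb, edge to edge, 20 other genes of the identifier range are listed, 17 of them pseudogenes, and 17 had no read in any library. Genes with identifiers outside the range were not looked at. How reads with several matches were counted is not known, and repeated sequence was searched for in members only. A count of 0 at the other neighbours therefore need not mean that they were silent. The pseudogenes nearest to it, AT3G30722 and AT3G30724, lie 0.3 kb before and 0.4 kb after it and were at 0 in all 6 libraries. GDU6 (AT3G30725), of the glutamine dumper family of amino acid export, lies 2.5 kb away and was also at 0. The one neighbour that was a member, the pseudogene AT3G30737, had 44.0, 32.2 and 50.02 normalized counts in the libraries labelled bbx14-1 and 38.7, 12.6 and 31.3 in WT, overlapping groups that did not differ by the test (limma, log2 fold change 0.71, adjusted p = 0.396). Among the other neighbours no library exceeded 2.02 normalized counts, under the floor of 3 reads, which is 2.40 to 3.77 normalized counts.

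Around AT3G29633 the picture was mixed. Of 21 genes of the identifier range within 50 kb, 12 had no read, with the same limit for repeated sequence. A mean under 10 was found for 19, with 15.05 normalized counts as their highest value in any library. AT3G29639, an uncharacterized gene 25.1 kb away, had 19.2, 11.8 and 16.0 normalized counts in the libraries labelled bbx14-1 and 13.5, 20.1 and 14.1 in WT, and was not called (limma, log2 fold change -0.02, adjusted p = 0.991). In contrast, AT3G29644 at 45.4 kb was higher. AT3G29635, at 12.2 kb and below the level limit, was at 1.60, 0 and 0 normalized counts in the libraries labelled bbx14-1 and 6.73, 7.54 and 2.02 in WT, and was not tested.

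**Figure D2:**
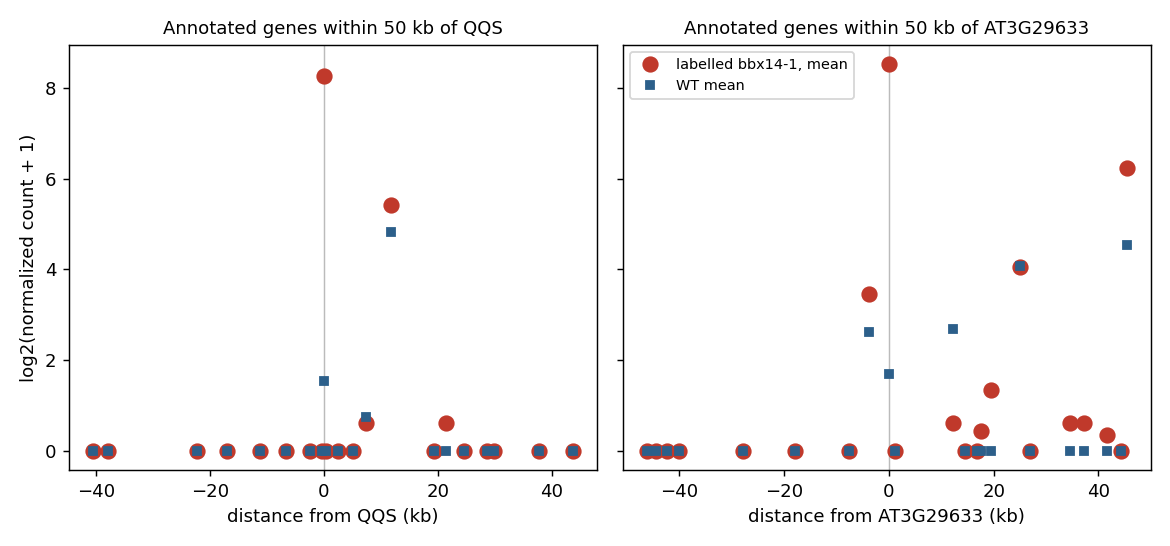
Mean log2(normalized count + 1) of every gene of the identifier range within 50 kb of QQS (left) and AT3G29633 (right), against distance in kb. Circles are the libraries labelled bbx14-1 and squares are WT, and the gene itself is at 0 kb. Genes with identifiers outside the range are not shown. Around QQS 17 of 20 genes lie at 0 in both groups. Around AT3G29633 the means of AT3G29644, at 45.4 kb, and AT3G29630, at 3.8 kb, are higher for the libraries labelled bbx14-1. That of AT3G29635, at 12.2 kb, is lower.

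Of the 75 members other than QQS and AT3G29633, 6 were higher and 1 was lower in the libraries labelled bbx14-1 (limma on log2 of the normalized count + 1, Benjamini-Hochberg adjusted p under 0.05 over all genes tested). Over all 19003 genes tested 4.65% were called, 2.51% higher and 2.14% lower, against 9.33% of these 75. The members' median log2 fold change was 0.03 and that of all genes was 0.00, with 43 members positive and 32 negative. All 7 calls rest on the variance trend over genes that limma fitted: without it 0 of the 75 were called, against 0.147% of all genes, 0.0684% higher and 0.0789% lower. There 12 of the 75 (16.0%) had an unadjusted p under 0.05 in limma, against 14.0% of all genes. Voom on recovered reads again called 6 higher and 1 lower, against 4.73% of all genes, 2.49% higher and 2.23% lower. Leaving out 1 library gave 2 to 5 members called higher, with 2 without WT replicate 1, 3 without WT replicate 3, bbx14-1 replicate 2 or bbx14-1 replicate 3, and 0 or 1 called lower. In those fits 1.47% to 2.32% of all genes were called higher, and 2.67% to 6.67% of the 75.

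AT3G29644, the long non-coding RNA gene, had the largest change among the members called. It had 93.5, 54.8 and 75.03 normalized counts in the libraries labelled bbx14-1, against 21.9, 26.4 and 18.2 in WT. The groups did not overlap, and the log2 fold change was 1.69 with a standard error of 0.33 (limma, adjusted p = 0.00253). The call held whichever 1 library was left out (adjusted p by limma, 0.00216 to 0.0331). The gene lies at chr3:11498879-11501424 on the minus strand and overlaps the pseudogene AT3G29642 on the other strand, which had no read. Of its windows, 2.72% occurred more than once.

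A pair of called members takes part in primary or hormone metabolism. PHS1, the plastid alpha-glucan phosphorylase that acts on starch-derived glucans, had 2789, 2704 and 2935 normalized counts in the libraries labelled bbx14-1, against 2425, 2129 and 2298 in WT. The groups did not overlap, but the rise was small, 0.30 on the log2 scale with a standard error of 0.09 (limma, adjusted p = 0.0479), and the call was lost whichever 1 library was left out (adjusted p by limma, 0.0648 to 0.205), and also with no filter (limma, adjusted p = 0.0552). BR6OX2, the cytochrome P450 of the last step of brassinolide synthesis, had 728, 806 and 743 normalized counts in the libraries labelled bbx14-1 and 518, 608 and 598 in WT. It rose by 0.40 (limma, SE 0.11, adjusted p = 0.0298), a call that held in 1 of the 6 fits without a library, that without WT replicate 2 (limma, adjusted p up to 0.185 in the others).

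SDR4, of the short-chain dehydrogenase reductase family, had 108, 106 and 95.0 normalized counts in the libraries labelled bbx14-1, against 48.8, 65.3 and 46.4 in WT. No library of one group reached the other, and it rose by 0.95 (limma, SE 0.24, adjusted p = 0.0226). The call was lost without bbx14-1 replicate 1 or 2 or WT replicate 1 or 3 (limma, adjusted p from 0.0847 to 0.0881). P1R3, annotated as an uncharacterized protein gene, had 68.8, 66.6 and 95.0 normalized counts in the libraries labelled bbx14-1 and 37.0, 30.1 and 32.3 in WT. It rose by 1.17 (limma, SE 0.29, adjusted p = 0.0169) and lost its call without bbx14-1 replicate 3 or WT replicate 3 (limma, adjusted p = 0.107 and 0.0501).

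The extensin-like cell wall gene AT3G28550 had 524, 875 and 724 normalized counts in the libraries labelled bbx14-1 and 237, 570.3 and 305 in WT. WT replicate 2 exceeded the lowest library labelled bbx14-1, so the groups overlapped. The log2 fold change was 1.00 with a standard error of 0.21 (limma, adjusted p = 0.00484), and the call was lost without WT replicate 1 (0.73, limma adjusted p = 0.0638). Of its windows 24.1% occurred more than once in the genome, so its count is uncertain. That share was over 10% in 7 members, AT3G28660 (24.0%) and AT3G29639 (16.1%) among them, and the same limit holds for their counts. The one member that fell was AT3G29180, of a plant family of unknown function, with 641, 639 and 576 normalized counts in the libraries labelled bbx14-1 and 787, 814 and 827 in WT. It fell by 0.39 without overlap (limma, adjusted p = 0.0283), and the call was lost without bbx14-1 replicate 3 or any 1 WT library (limma, adjusted p from 0.0770 to 0.102).

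**Figure D3:**
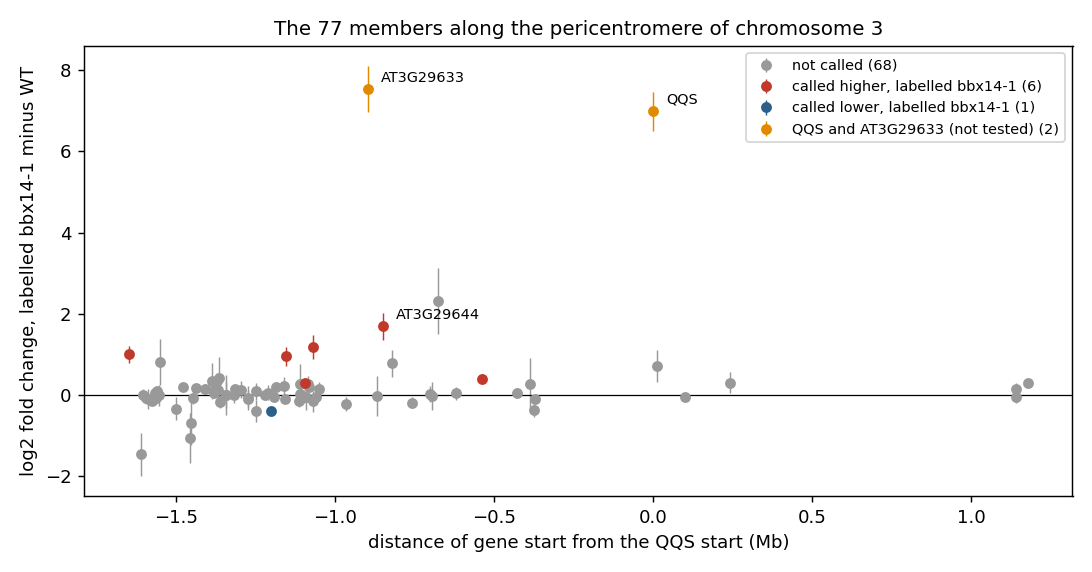
Log2 fold change (labelled bbx14-1 minus WT, bars are standard errors) of the 77 members against the distance of their start from the QQS start in Mb; colours give the limma call, and QQS and AT3G29633 were not tested. QQS and AT3G29633, at 6.99 and 7.54, stand far above the 68 uncalled members, and the 7 called members start at lower coordinates than QQS, as do 69 of the 75.

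Of the 6 most abundant members only PHS1 was called. ERD5, the proline dehydrogenase that starts proline breakdown, had 7211, 6670 and 7717 normalized counts in the libraries labelled bbx14-1 and 7219, 8431 and 6895 in WT (limma, log2 fold change -0.06, adjusted p = 0.823). Per kilobase of exon it was the highest member in both groups, at 3312 normalized counts in the libraries labelled bbx14-1 and 3457 in WT. The amino acid transporter gene AT3G30390 had 6179 ± 164 normalized counts in the libraries labelled bbx14-1 and 6630 ± 57.3 in WT (SD, n = 3 each), which did not overlap but did not pass the test (limma, log2 fold change -0.10, adjusted p = 0.597). AT3G29240 was at 3515 ± 414 normalized counts in the libraries labelled bbx14-1 and 3721 ± 180 in WT (SD, n = 3 each; limma, adjusted p = 0.702). ABCB19, an auxin export carrier, was at 3467 ± 292 in the libraries labelled bbx14-1 and 3004 ± 123 in WT (SD, n = 3 each; limma, adjusted p = 0.227). The peroxidase-family gene AT3G32980, the member with the greatest coordinate, had 2707, 3200 and 3065 normalized counts in the libraries labelled bbx14-1 and 2481, 2476 and 2343 in WT (limma, log2 fold change 0.29, adjusted p = 0.0572). It was called under quantile normalization and without bbx14-1 replicate 1 (limma, adjusted p = 0.0234 and 0.0325).

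Apart from AT3G29644, the members next to QQS and AT3G29633 were not called. AT3G30380, an alpha/beta-hydrolase gene, was at 170.2 ± 16.7 normalized counts in the libraries labelled bbx14-1 and 221 ± 42.7 in WT (SD, n = 3 each; limma, adjusted p = 0.293). The exocyst gene EXO70E1 was at 254 ± 53.6 labelled bbx14-1 and 227 ± 33.6 in WT (SD, n = 3 each; limma, adjusted p = 0.728). AFP3, of the ABI5-binding protein family, was at 144 ± 6.004 labelled bbx14-1 and 169 ± 2.50 in WT, without overlap (SD, n = 3 each; limma, adjusted p = 0.56). Regulators named here for their roles, after their values were seen, were not called either. KIN11, a catalytic subunit of the energy-sensing kinase SnRK1, was at 676 ± 21.5 normalized counts labelled bbx14-1 and 673 ± 15.1 in WT (SD, n = 3 each; limma, adjusted p = 0.989). The MYB factor gene MYB30 was at 678 ± 79.8 labelled bbx14-1 and 605 ± 32.2 in WT (SD, n = 3 each; limma, adjusted p = 0.526). AHP2, a phosphotransmitter of cytokinin signalling, was at 264 ± 44.2 labelled bbx14-1 and 221 ± 54.6 in WT (SD, n = 3 each; limma, adjusted p = 0.475). Of the 68 members not called, 61 had a log2 fold change of under 0.5 in size.

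Among low members, 4 had a mean under 10 in WT and 2 in the libraries labelled bbx14-1, so they entered through one group. Besides QQS and AT3G29633 these were RALFL27, AT3G28770, AT3G28660 and AT3G28875, and none of the 4 was called. RALFL27, of the RALF-like peptide family, had 20.8, 19.3 and 22.0 normalized counts in the libraries labelled bbx14-1 and 3.36, 0 and 18.2 in WT, with 1 WT library close to the others (limma, adjusted p = 0.114). AT3G28660, of the tetratricopeptide-like family, was at 7.995, 9.67 and 6.002 normalized counts in the libraries labelled bbx14-1, against 23.5, 28.9 and 18.2 in WT (limma, log2 fold change -1.46, adjusted p = 0.129). The lowest member by mean was RGF4, at 11.3 normalized counts, and the highest gene left out was AT3G28640, at 8.42. Without QQS and AT3G29633, 19 of the 75 members (25.3%) had groups that did not overlap, against 21.0% of all genes tested. Among these 19 are all 4 that entered through one group, RALFL27, AT3G28770, AT3G28660 and AT3G28875, so no excess is read from this share.

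Windows of identifiers next to other centromeres were set beside these members. Of the 75 members 9.33% were called, against 8.07% of 223 tested genes on chromosome 4, 5.97% of 67 on chromosome 1, 5.69% of 123 on chromosome 5, 3.35% of 358 on chromosome 2 and 2.21% of 181 on the other side of the chromosome 3 centromere. Of the genes called higher by at least 2-fold, 3 were among the 75 (4.00%), 5 in the chromosome 4 window (2.24%) and 0 or 1 in each of the others, against 88 of all genes tested (0.463%). These shares were not tested against each other. Among the 3 is AT3G28550, which stood at the 2-fold limit, with a log2 fold change of 1.00 and overlapping groups. Without WT replicate 1 its log2 fold change was 0.73 and its call was lost. In this range 11.5% of the listed genes reached the level limit, against 51.5% of all genes in the table. The share was 12.01% in the window on chromosome 1, 13.1% on chromosome 5, 14.8% on chromosome 4 and 17.5% on chromosome 2. On the other side of the chromosome 3 centromere it was 25.9%.

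Genes of the processes that QQS is known for differed in part. NF-YC4, whose product binds that of QQS, had 547, 517 and 475 normalized counts in the libraries labelled bbx14-1 and 384, 422 and 335 in WT. It rose by 0.43 without overlap (limma, adjusted p = 0.0418), the only call among 4 tested NF-YC genes, and lost it in 4 of the fits without a library (limma, adjusted p from 0.112 to 0.201) and without the variance trend (limma, adjusted p = 0.238). Of 30 starch genes 6 were lower, against 2.14% of all genes, and 1, the member PHS1, was higher. Without the variance trend 0 were lower, and without WT replicate 3 there were 3, ISA3 losing its call (limma, adjusted p = 0.0514). The median log2 fold change of the list was -0.12, against 0.00 for all genes. Those called lower take part in starch breakdown. Other breakdown genes of the list were not called, among them BAM1, DPE2 and DPE1 (limma, log2 fold change -0.14, -0.10 and -0.02) and LSF1 (0.23). The beta-amylase gene BAM3 had 221, 267 and 281 normalized counts in the libraries labelled bbx14-1 and 509, 472 and 443 in WT, a fall of 0.89 (limma, adjusted p = 0.000141). PHS2, the cytosolic relative of PHS1, fell by 0.60, the glucan dikinase gene SEX1 by 0.47 and the debranching enzyme gene ISA3 by 0.49 (limma, adjusted p = 0.00044, 0.0018 and 0.00919).

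Genes of DNA methylation and silencing included 1 called higher and 1 called lower of 32 tested, against 2.51% and 2.14% of all genes. Both calls were lost without the variance trend (limma, adjusted p = 0.277 for MET1 and 0.141 for VIM1). MET1, the maintenance methyltransferase of CG sites, rose by 0.64, with 225, 290.2 and 284 normalized counts in the libraries labelled bbx14-1 and 201, 193 and 125 in WT (limma, adjusted p = 0.0379; 0.124 to 0.233 without bbx14-1 replicates 2 or 3 or WT replicate 3). VIM1, which guides MET1 to DNA, fell by 1.74, with 27.2, 17.2 and 20.01 normalized counts in the libraries labelled bbx14-1, against 62.2, 123.1 and 50.4 in WT (limma, adjusted p = 0.00425; 0.0554 without WT replicate 2). Other loci known to be silenced by methylation were low in both groups. FWA had 4.797, 0 and 4.002 normalized counts in the libraries labelled bbx14-1 and 9.25, 10.0 and 6.05 in WT. SDC was at 0 in the 3 libraries labelled bbx14-1 and at 0, 2.51 and 2.02 in WT, while the transposon genes AT5G17125 and AT4G08680 had no read. None of these 4 reached the level limit for the test. Repeated sequence was not searched for in them, so a count of 0 at the transposon genes need not mean silence.

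**Figure D4:**
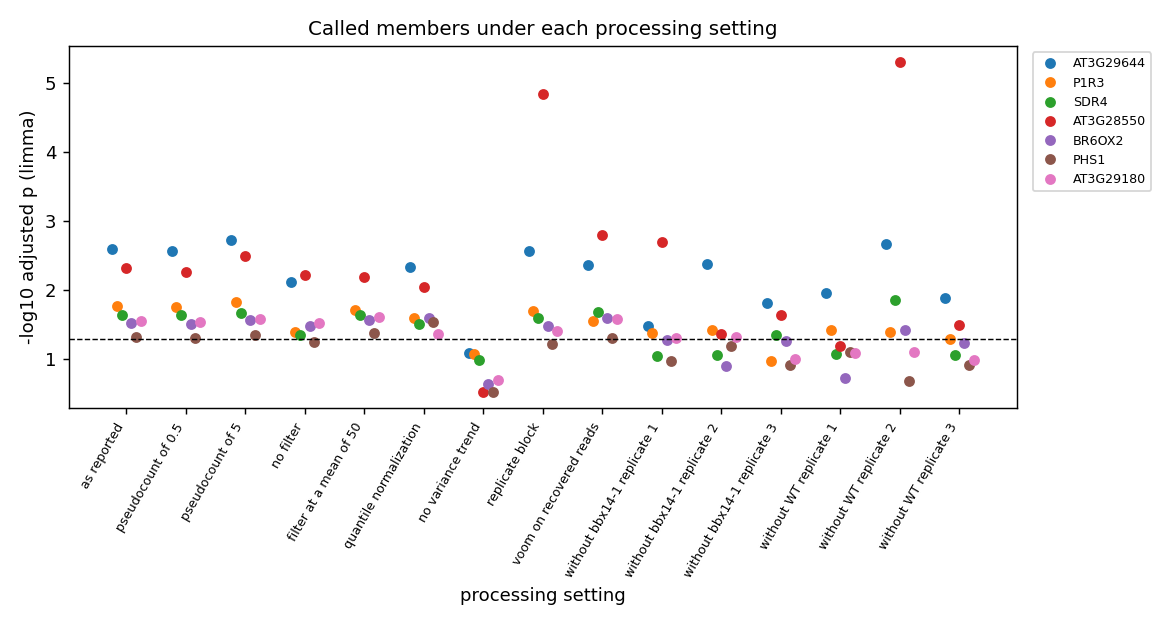
Adjusted p of the 7 called members as −log10 (vertical axis, limma) under each processing setting, with the dashed line at an adjusted p of 0.05. All 7 lie above the line as reported and below it without the variance trend, and AT3G29644 stays above it in the 6 settings that leave out a library.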

How the data were processed

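The deposited values are normalized counts per gene: per the submitters' processing notes the authors used Trimmomatic, FastQC, TopHat2 (2.1.1), featureCounts and DESeq2, on build TAIR10. How strand and reads with several matches were handled, and which annotation release was used, is not given in the sources used here. In each library 100% of the values were whole multiples, within 0.01, of what 1 read is worth, so reads were recovered. No 2 libraries of a group agreed within sampling noise (chi-square per degree of freedom 7.78 or more).

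Tested were the 19003 genes averaging 10 normalized counts or more. Values were put on the scale log2(normalized count + 1), which understates the change of low genes, and fitted with limma (3.58.1, R 4.3.3) with a variance trend, as labelled bbx14-1 minus WT. The two-sided p-values were Benjamini-Hochberg adjusted over all genes tested, with 0.05 as the threshold. The procedure was tested on simulated counts whose spread depended only on the mean, so that test cannot judge the variance trend. A floor is 3 reads and covers counting error only. Voom on recovered reads was added after seeing the data.

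Positions, names and sequences came from RefSeq on TAIR10.1, which matched 36632 of 36917 identifiers. Exon windows of 50 bases were searched on both strands of the genome. Members and lists were chosen with earlier results of these data known. By rule the text names QQS, AT3G29633, the other members called, the most abundant members, those next to QQS and AT3G29633, the called genes of each list with the smallest adjusted p, and BBX14; other names were chosen after their values were seen.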

Additional observations from a re-analysis of the deposited data

How the results depend on the processing

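As reported, 6 members besides QQS and AT3G29633 were called higher and 1 lower. Counted anew in each setting, members called numbered 5 to 6 higher and 1 lower with a pseudocount of 0.5 or 5, no filter or a filter at a mean of 50. With quantile normalization 7 were higher, with the replicate block 5 and with voom 6, and each had 1 lower. Without the variance trend the counts were 0 and 0. Over the fits that left out a library they ranged from 2 to 5 higher and from 0 to 1 lower. These counts can include members not among the 7 reported calls, of which 2 to 5 were kept in those fits. The cause was not tested. No fold change of a named gene that was called reversed in any setting. The replicate numbers did not pair the libraries: the deviations of same-numbered libraries from their group means correlated at 0.04, 0.02 and -0.03. With that replicate block 5 members were called higher and 1 lower, PHS1 losing its call (limma, adjusted p = 0.0596), and 915 genes were called in all. The log2 fold change of QQS was 6.99 with a pseudocount of 1 and 5.52 with a pseudocount of 5, and that of AT3G29633 was 7.54 and 5.81, since both were near 0 in WT. AT3G29644, AT3G29639 and AT3G30737, with means under 50, could not be fitted under that filter. A planned count model on recovered reads was not run, and voom was run in its place.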
